A study of Mus musculus with 9 samples.

Results

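Expression of the collagen genes was examined in the colorectum of mice with colitis-associated cancer. Every gene symbol made of Col, a number, the letter a and a number was taken, which gave 44 of the 21498 gene symbols in the expression tables. RNA was sequenced from 9 male ICR mice, an outbred strain, 5 weeks old when the experiment began, with 3 mice in each of 3 groups. Control mice received neither AOM/DSS nor an antibody, and their tissue is labelled normal colorectal mucosa. The other mice received one injection of AOM, a colon carcinogen, at 10 mg/kg on day 1, and then drank water with DSS, a sulfated sugar polymer toxic to the colon lining, in 3 cycles (the first of 7 days at 2%, the later ones of 5 days at 1.5%). Every 2 days during these cycles they were given either a negative control IgG antibody (AOM/DSS + IgG Ab, called IgG below) or an antibody against S100a9 (AOM/DSS + anti-S100a9 Ab, called anti-A9 below), each at 1.5 mg/kg, and the labels place the killing at the end of week 18, while the study's methods also name an earlier time. Which time each library comes from is not stated beyond this label. Both AOM/DSS groups are labelled colorectal adenocarcinoma, whereas the study's text speaks of colon mucosa for the anti-S100a9 Ab samples. No group analysed here received AOM/DSS without an antibody.

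Collagens are proteins of 3 chains wound into a helix, and each chain type has its own gene. The fibril-forming types I, III and V make the rope-like fibers of connective tissue, and type IV makes the sheet of the basement membrane on which epithelium and vessels rest. In the colon wall most collagen RNA is made by fibroblasts and smooth muscle cells, while a few collagens, such as type XVII, are made by epithelial cells.

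Levels are given as FPKM, fragments scaled by transcript length and library size, so that they can be set side by side between genes. The FPKM totals of the mice lay between 308377 and 408811, and the sequencing depths relative to Control mouse 1, read from the steps between low values, lay between 0.859 and 1.12. How many fragments were counted is not known, and p-values measure only the spread between these mice. A value of 0 is described as listed at 0, because some genes that nearly all cells use, Gapdh among them, stood near 0 in these tables. Epithelial markers were present in every mouse, with Epcam at 584 to 890 FPKM, and the 6 markers together at 2130 to 3117 FPKM over all 9 mice. One of the 6, the keratin Krt18, was at 164 to 256 FPKM in Control, 596, 334 and 595 FPKM in IgG, and 177 to 193 FPKM in anti-A9. Smooth muscle markers were also present, and their sum varied most among the IgG mice (530 to 3300 FPKM, against 1832 to 2914 in Control and 2284 to 4133 in anti-A9).

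A gene was tested when it reached 0.1 FPKM in at least 3 mice, which 35 of the 44 collagen genes did. Fold changes are differences of log2(FPKM + 0.1), which understate the change of genes with low values, and a gene was called when the p-value of limma, adjusted over the 15278 genes tested, was under 0.05. In IgG against Control, 13 collagen genes were higher and 1 was lower. Of all genes tested, 8.18% were called higher and 3.01% lower (11.2% in all). In anti-A9 against IgG, 11 collagen genes were lower and 4 were higher, and of all genes tested 14.4% were called lower and 6.72% higher (21.1% in all). Of these called collagens, 2 passed the filter only through the group where they are high, Col22a1 through IgG and Col25a1 through anti-A9, so that their differences follow in part from the filter. Without the genes that depended on 1 group in this way, 33 collagens were left, of which 13 were higher and 1 lower in IgG against Control (7.4% and 3.09% of the 14603 genes left), and 10 were lower and 3 higher in anti-A9 against IgG (13.8% and 6.72%). These comparisons share the IgG mice. In anti-A9 against Control, 0 collagen genes were called by limma and 3 had an unadjusted p under 0.05, where 0.0131% of all genes were called and 16% had such an unadjusted p. The unadjusted p was under 0.05 for 18 collagens in IgG against Control and 20 in anti-A9 against IgG, and for 29.5% and 39.1% of all genes. With the study's thresholds, an unadjusted p under 0.05 and over 2-fold, 16, 18 and 1 collagens passed in the 3 comparisons in turn, and 13.6%, 16% and 3.15% of all genes. Among the 35, all IgG mice lay above all Control mice in 15 genes and below them in 2 (20.7% and 10.2% of all genes). All anti-A9 mice lay above all IgG mice in 4 and below them in 14 (18.5% and 28.5% of all genes), and above all Control mice in 9 and below them in 1 (17.3% and 13.7%). The median log2 fold change of the 35 tested collagens was 0.84 in IgG against Control, -0.69 in anti-A9 against IgG and 0.22 in anti-A9 against Control. Over all genes tested it was 0.09, -0.06 and 0.04.

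Summed over the 44 genes, collagen expression was 411 to 467 FPKM in the Control mice. It was 710, 2197 and 2113 FPKM in IgG mice 1, 2 and 3, and 449 to 600 FPKM in the anti-A9 mice. IgG mice 2 and 3 stood far above the other 7 mice, and IgG mouse 1 lay above all Control and anti-A9 mice by a smaller margin. As a share of all FPKM, the sum was 0.1% to 0.131% in Control, 0.215%, 0.593% and 0.574% in the IgG mice, and 0.139% to 0.195% in anti-A9. Types I and III made up 44.0% to 48.9% of the collagen FPKM in Control, 43.1% to 47.9% in anti-A9, and 50.1%, 78.5% and 55.4% in IgG mice 1, 2 and 3. These are bulk tissue samples, in which fewer cells of a type and less RNA per cell cannot be told apart.

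**Figure D1:**
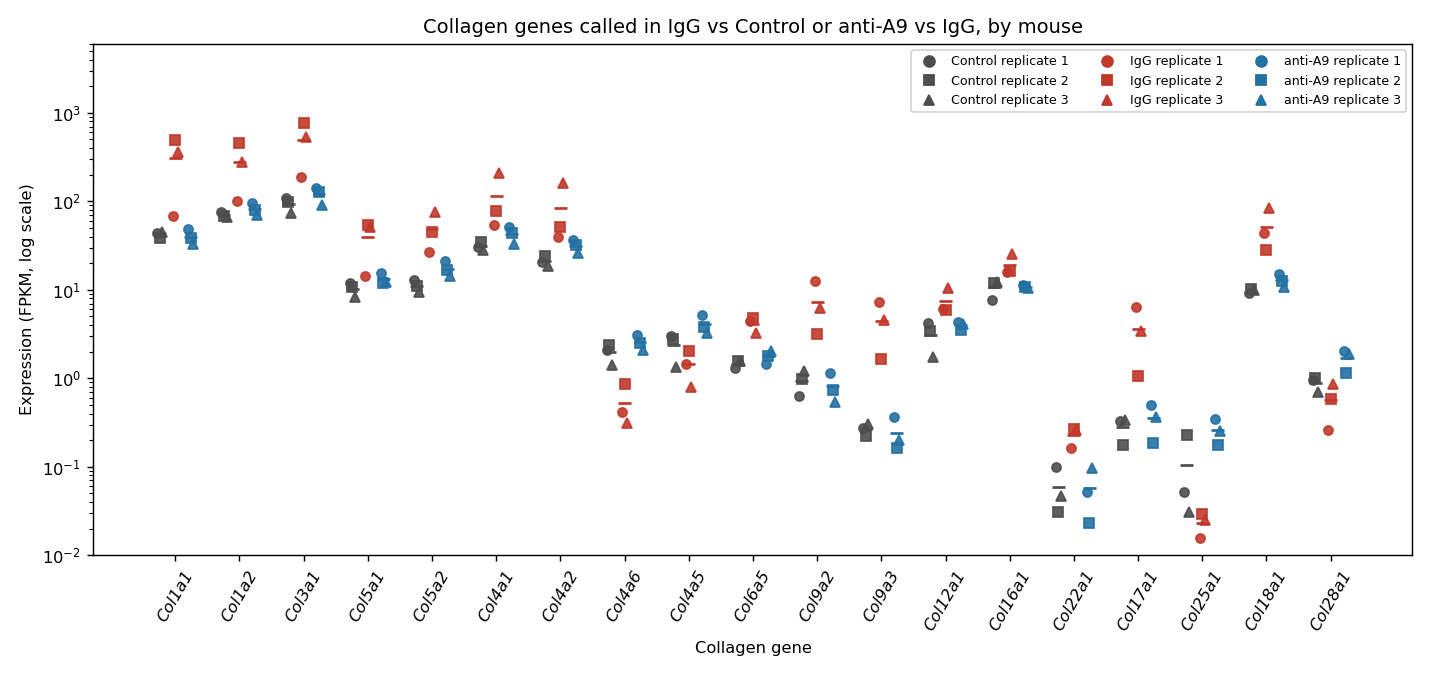
Expression of the 19 collagen genes called in IgG against Control or in anti-A9 against IgG (FPKM, log scale), with 1 point per mouse, the mark giving the replicate and a short bar the mean of each group. In the 5 genes of types I, III and V at the left, IgG mice 2 and 3 lie far above the other groups and IgG mouse 1 lies close to them, while Col4a6 and Col25a1 are lowest in the IgG mice.

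The starts of 5 collagen genes are shown, since these genes carry the main patterns: Col3a1 and Col5a1 of the fibril-forming group and Col17a1, which were called higher in IgG, Col4a6, called lower in IgG, and Col4a5, its neighbor. The sequences are from RefSeq on GRCm38.p6, run 5′ to 3′ on the strand of the gene, and end where the first annotated exon base begins. Capitals mark matches, on either strand, to the CCAAT box (letters CCAAT), the TATA box (letters TATAAA), the GC box (letters GGGCGG), the AP-1 motif (letters TGANTCA) and the TCF/LEF motif (CTTTGAT or, in its other form, CTTTGAA), which do not overlap in these stretches. RefSeq entries were matched for 14 of the 19 called collagen genes (15 windows of 250 bases before the start). Several windows overlap annotated exons. Those of Col4a1 and Col4a2 do so over all 250 bases, 1 of Col18a1 over 241 and that of Col9a2 over 181. The Col1a2 window lies inside the annotated gene. Motifs of these windows are counted below, and exon overlap of the other promoters was not examined. Among all 32851 promoters of this length, 33.8% held a CCAAT box, 12.4% a TATA box, 32.7% a GC box, 6.75% an AP-1 motif and 7.48% a TCF/LEF motif. Among the 15 collagen windows, 8 held a CCAAT box, 2 a TATA box, 10 a GC box, 0 an AP-1 motif and 1 a TCF/LEF motif. The Col3a1 window (chr1:45311288-45311537, plus strand) was 35.2% G and C, whereas that of Col5a1 (chr2:27886175-27886424, plus strand) was 76.4%. The stretch for Col17a1 (chr19:47692095-47692292, minus strand) held 2 TATA boxes. The genes Col4a5 and Col4a6 lie head to head on chromosome X with 1309 bases between their starts, and their stretches (chrX:141475169-141475384, plus strand, and chrX:141474077-141474326, minus strand) fall between them.
Col3a1: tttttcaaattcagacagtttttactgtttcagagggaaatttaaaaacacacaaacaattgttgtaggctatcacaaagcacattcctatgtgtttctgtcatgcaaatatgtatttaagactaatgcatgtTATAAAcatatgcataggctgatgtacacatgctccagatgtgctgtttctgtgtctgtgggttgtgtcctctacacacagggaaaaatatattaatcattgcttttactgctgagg
Col5a1: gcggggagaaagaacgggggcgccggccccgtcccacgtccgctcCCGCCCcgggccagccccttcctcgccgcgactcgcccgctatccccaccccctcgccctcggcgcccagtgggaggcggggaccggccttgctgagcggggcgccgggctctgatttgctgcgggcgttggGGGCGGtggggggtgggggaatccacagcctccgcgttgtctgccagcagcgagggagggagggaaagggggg
Col17a1: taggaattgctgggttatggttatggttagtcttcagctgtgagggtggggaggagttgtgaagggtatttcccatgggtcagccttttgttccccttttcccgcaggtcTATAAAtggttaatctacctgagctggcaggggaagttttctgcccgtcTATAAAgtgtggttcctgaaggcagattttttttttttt
Col4a5: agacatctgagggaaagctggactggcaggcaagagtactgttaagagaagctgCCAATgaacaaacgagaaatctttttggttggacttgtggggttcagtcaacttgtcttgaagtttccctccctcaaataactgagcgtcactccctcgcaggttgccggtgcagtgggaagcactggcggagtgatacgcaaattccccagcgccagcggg
Col4a6: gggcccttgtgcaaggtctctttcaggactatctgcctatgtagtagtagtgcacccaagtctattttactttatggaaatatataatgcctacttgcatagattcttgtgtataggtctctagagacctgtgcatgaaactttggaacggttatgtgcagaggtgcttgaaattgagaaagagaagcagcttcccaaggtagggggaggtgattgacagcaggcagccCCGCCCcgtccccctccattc

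Of the 11 fibril-forming genes, 9 were tested, 5 of them rose in IgG against Control, and 4 fell in anti-A9 against IgG. Col3a1 encodes the chain of type III, the fine fiber of soft organs. Its level was 110, 98.3 and 73.4 FPKM in Control, 188, 777 and 533 FPKM in IgG, and 142, 126 and 90.7 FPKM in anti-A9. All IgG mice lay above all other mice, although IgG mouse 1 was only 2.00 times the Control mean, against 8.29 and 5.68 times in IgG mice 2 and 3. The log2 fold change was 2.20 ± 0.46 (SE) in IgG against Control (limma, adjusted p = 0.0203) and -1.86 ± 0.46 in anti-A9 against IgG (adjusted p = 0.0267).

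Col1a1 and Col1a2 encode the chains of type I, the main fiber of scar and stroma. Col1a1 was at 43.4, 38.7 and 44.6 FPKM in Control, 68.6, 489 and 358 FPKM in IgG, and 48.6, 38.2 and 33.0 FPKM in anti-A9. The IgG values did not overlap with either group, but spread more than 7-fold among themselves (305 ± 215 FPKM, SD, n = 3). The log2 fold change of Col1a1 was 2.44 ± 0.61 in IgG against Control (limma, adjusted p = 0.0365) and -2.54 ± 0.61 in anti-A9 against IgG (adjusted p = 0.0240). Without IgG mouse 1 the change against Control was 3.31 (limma, adjusted p = 0.000663). This was the only 1 of the 9 fits leaving out a mouse that kept the call, and the adjusted p otherwise reached 0.110. Col1a2 was at 75.4, 67.5 and 66.3 FPKM in Control, 99.6, 458 and 280 FPKM in IgG, and 96.3, 79.4 and 69.8 FPKM in anti-A9. IgG mouse 1 was thus only slightly above anti-A9 mouse 1. Its log2 fold changes were 1.75 ± 0.46 in IgG against Control (limma, adjusted p = 0.0433) and -1.53 ± 0.46 in anti-A9 against IgG (adjusted p = 0.0459).

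The RNA of the type I chains did not keep a fixed proportion. The ratio of Col1a1 to Col1a2 FPKM was 0.575, 0.573 and 0.674 in Control, 0.689, 1.07 and 1.28 in IgG, and 0.504, 0.481 and 0.472 in anti-A9. The 3 groups did not overlap, with anti-A9 lowest and IgG highest, and the gap between the highest Control and the lowest IgG mouse was small. With 3 mice against 3, a comparison cannot reach an exact permutation p below 0.1, so ratios are described without a test.

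Type V collagen starts and limits the growth of type I fibrils. Col5a2 was at 13.0, 11 and 9.42 FPKM in Control, 26.5, 45.1 and 75.2 FPKM in IgG, and 21, 16.8 and 14.4 FPKM in anti-A9. Every IgG mouse was above every other mouse, and every anti-A9 mouse was above every Control mouse. Its log2 fold change was 2.01 ± 0.34 in IgG against Control (limma, adjusted p = 0.00857), -1.38 ± 0.34 in anti-A9 against IgG (adjusted p = 0.0256) and 0.63 ± 0.34 in anti-A9 against Control (adjusted p = 0.366). Col5a1 was at 11.8, 10.8 and 8.22 FPKM in Control, 14.3, 53.4 and 51.5 FPKM in IgG, and 15.4, 11.9 and 12.2 FPKM in anti-A9. It was called higher in IgG (1.73 ± 0.45, limma, adjusted p = 0.0416), and in anti-A9 against IgG it missed the threshold (-1.37 ± 0.45, adjusted p = 0.0589), with IgG mouse 1 below anti-A9 mouse 1. Without IgG mouse 1 that second change was -2.0 (limma, adjusted p = 0.00290). The other 8 fits leaving out a mouse gave no call in either comparison, with adjusted p up to 0.106 against Control and 0.160 against IgG.

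The other fibril-forming genes were not called. Col5a3, the third type V chain, was at 1.64 to 2.72 FPKM in Control, 2.70, 5.42 and 17.2 FPKM in IgG, and 1.87 to 2.78 FPKM in anti-A9. Its IgG value came mainly from mouse 3, and its log2 fold change against Control was 1.48 (95% interval 0.20 to 2.76, limma, adjusted p = 0.122). Col11a2, Col24a1 and Col27a1 had log2 fold changes of -0.44, 0.72 and 0.06 in IgG against Control. Col2a1, the cartilage collagen, and Col11a1, its fibril partner, did not pass the filter on low values, and Col11a1 reached 1.11 FPKM in IgG mouse 2 and no more than 0.126 FPKM in any other mouse.

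Of the 6 genes of type IV, the basement membrane collagen, 4 were tested, and in IgG against Control 2 were called higher (Col4a1 and Col4a2) and 1 lower (Col4a6). Col4a1 and Col4a2 encode the chains found in nearly all basement membranes. Col4a1 was at 30.3, 34.9 and 28.5 FPKM in Control, 53.8, 77.6 and 210 FPKM in IgG, and 50.9, 43.5 and 32.9 FPKM in anti-A9. Col4a2 was at 20.8, 24.1 and 18.8 FPKM in Control, 39.2, 51.3 and 160 FPKM in IgG, and 36.3, 31.7 and 25.9 FPKM in anti-A9. In both genes IgG mouse 3 stood highest, and the lowest IgG mouse was just above the highest anti-A9 mouse. Both were called higher in IgG against Control, with log2 fold changes of 1.62 ± 0.43 (limma, adjusted p = 0.0439) and 1.69 ± 0.44 (adjusted p = 0.0430). In anti-A9 against IgG the changes were -1.19 (adjusted p = 0.0747) and -1.14 (adjusted p = 0.0942), which missed the threshold. The genes lie head to head on chromosome 8, where the annotation starts them 21 bases apart and has them overlap by 22 bases. The Col4a1 to Col4a2 ratio stayed within 1.27 to 1.52 over all 9 mice, while Col4a1 itself ranged from 28.5 to 210 FPKM.

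Col4a5 and Col4a6 encode chains of a second type IV network, which basement membranes around smooth muscle and below some epithelia contain. Col4a6 was at 2.10, 2.38 and 1.43 FPKM in Control, 0.417, 0.862 and 0.310 FPKM in IgG, and 3.11, 2.49 and 2.08 FPKM in anti-A9. All IgG mice were below all other mice. Col4a6 fell in IgG against Control (log2 fold change -1.78 ± 0.36, limma, adjusted p = 0.0169) and rose in anti-A9 against IgG (2.16 ± 0.36, adjusted p = 0.00886), the only collagen gene called lower in IgG against Control. Col4a5 was at 3.03, 2.77 and 1.36 FPKM in Control, 1.45, 2.05 and 0.803 FPKM in IgG, and 5.19, 3.76 and 3.26 FPKM in anti-A9. The IgG mice lay below all anti-A9 mice but overlapped with Control. Its log2 fold change was 1.50 ± 0.40 in anti-A9 against IgG (limma, adjusted p = 0.0321), and -0.71 in IgG against Control (adjusted p = 0.271).

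The ratio of Col4a5 to Col4a6 was 0.953 to 1.44 in Control, 2.38 to 3.48 in IgG and 1.51 to 1.67 in anti-A9. The groups did not overlap. The ratio of Col4a1 to Col4a6, chains of the common and second network, was 14.4 to 20.0 in Control and 15.8 to 17.4 in anti-A9. In IgG it ran from 90.1 to 675. Col4a1 was called higher and Col4a6 lower in IgG against Control, so this ratio shows those calls again and adds no separate evidence. Smooth muscle markers and Col4a6 were both low in IgG mouse 1 (530 and 0.417 FPKM). In IgG mouse 3 the smooth muscle markers summed to 3300 FPKM, within the anti-A9 range, and Col4a6 was at 0.310 FPKM. The part of smooth muscle in the Col4a6 level was not tested. Col4a3 and Col4a4, chains of the kidney filter, were below 0.1 FPKM in every mouse and were not tested.

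**Figure D2:**
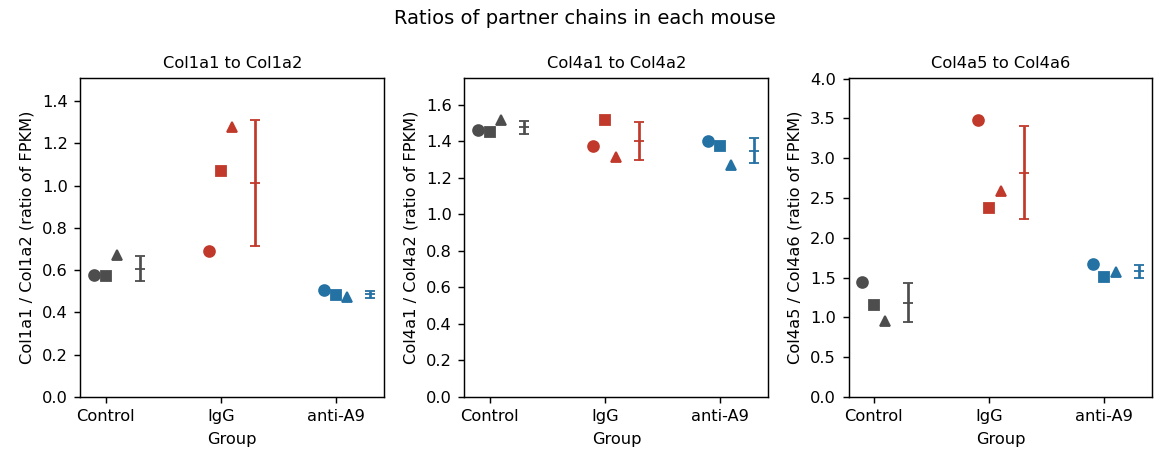
Ratio of FPKM of partner chains in each mouse for types I (Col1a1 to Col1a2) and IV (Col4a1 to Col4a2 and Col4a5 to Col4a6), with marks for the replicates, and bars for the mean and SD of 3 mice. The Col4a1 to Col4a2 ratio lies between 1.27 and 1.52 in all mice, while the other ratios drawn separate the IgG mice from Control and anti-A9. Of ratios not drawn, Col5a1 to Col5a2 (0.539 to 1.18 in IgG) overlapped with both other groups, and Col6a1 to Col6a2 (1.56 to 1.85) with Control. Col9a2 to Col9a3 (1.38 to 1.91 in IgG) lay below both other groups.

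Type VI collagen forms beaded filaments around cells, and was abundant in all groups. Col6a1 was at 57.7, 65.6 and 59.9 FPKM in Control, 51.6, 71.9 and 132 FPKM in IgG, and 62.3, 55.7 and 58.3 FPKM in anti-A9. Only IgG mouse 3 stood apart. Neither Col6a1 (log2 fold change 0.37, 95% interval -0.28 to 1.02), Col6a2 (0.45, -0.31 to 1.2) nor Col6a3 (0.68, -0.32 to 1.68) was called in IgG against Control, and these intervals do not exclude a 2-fold change. In Control, type VI genes made up 22.5% to 25.7% of collagen FPKM, and in IgG 13.9%, 6.22% and 12.1%.

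Col6a5, an alternative chain of type VI, was the exception. It was at 1.30, 1.56 and 1.55 FPKM in Control, 4.45, 4.74 and 3.26 FPKM in IgG, and 1.44, 1.80 and 2.06 FPKM in anti-A9. The 3 IgG mice were close to each other and above all other mice. The log2 fold change was 1.42 ± 0.23 in IgG against Control (limma, adjusted p = 0.00736) and -1.18 ± 0.23 in anti-A9 against IgG (adjusted p = 0.0142). Its neighbors on chromosome 9 were not called or not tested. Col6a4 was at 2.69 to 3.32 FPKM in Control and 2.96 to 6.80 FPKM in IgG, and Col6a6 stayed at or below 0.346 FPKM.

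Of the 9 fibril-associated genes in the tables, which encode collagens that sit on the surface of fibrils or link them to other matrix, 7 were tested, 3 rose in IgG against Control, and 4 fell in anti-A9 against IgG, with Col22a1, which passed the filter through IgG alone, among the 4. Type IX is known from cartilage, where it decorates type II fibrils. Col9a3 was at 0.278, 0.221 and 0.304 FPKM in Control, 7.25, 1.66 and 4.56 FPKM in IgG, and 0.362, 0.163 and 0.201 FPKM in anti-A9. Its IgG mean was 16.8 times the Control mean, the highest fold of the tested collagens. The log2 fold change was 3.42 ± 0.49 in IgG against Control (limma, adjusted p = 0.00462) and -3.56 ± 0.49 in anti-A9 against IgG (adjusted p = 0.00507).

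Col9a2 followed, with 0.628, 0.994 and 1.2 FPKM in Control, 12.6, 3.17 and 6.29 FPKM in IgG, and 1.16, 0.746 and 0.543 FPKM in anti-A9. The log2 fold changes were 2.66 ± 0.49 (limma, adjusted p = 0.0123) and -2.86 ± 0.49 (adjusted p = 0.00991) in the same order. In both genes all IgG mice lay above all others, and IgG mouse 1 was highest and mouse 2 lowest, unlike in types I and III. The third chain, Col9a1, was not tested, with 0.278, 0.0380 and 0.0903 FPKM in IgG and at most 0.0378 FPKM elsewhere. Of the cartilage markers, Acan, Matn1 and Matn3 were at or below 0.169 FPKM in every mouse and were not tested. Acan was listed at 0 in every Control mouse and was at 0.0381, 0.0714 and 0.169 FPKM in IgG. Hapln1 went the other way, with 0.863 to 1.07 FPKM in IgG, below its 1.81 to 3.31 FPKM in Control. Cnmd, also on this list, had no values.

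Col12a1, which bridges type I fibrils, was at 4.20, 3.39 and 1.73 FPKM in Control, 6.10, 5.92 and 10.6 FPKM in IgG, and 4.35, 3.49 and 4.06 FPKM in anti-A9. It was called higher in IgG (1.29 ± 0.34, limma, adjusted p = 0.0458) and missed the threshold in anti-A9 against IgG (-0.86, adjusted p = 0.101). Col16a1 showed the reverse order of calls. Its level was 7.67, 11.9 and 12.4 FPKM in Control, 15.7, 16.2 and 25.5 FPKM in IgG, and 11.4, 10.7 and 10.5 FPKM in anti-A9. It was not called against Control (0.84, adjusted p = 0.0550) and was called lower in anti-A9 against IgG (-0.78 ± 0.24, adjusted p = 0.0476). Col22a1, known from muscle and tendon junctions, reached only 0.162, 0.265 and 0.259 FPKM in IgG and passed the filter through these mice alone. It was at most 0.0999 FPKM elsewhere, and its changes were 1.06 (limma, adjusted p = 0.0589) and -1.07 (adjusted p = 0.0403). Col14a1, a binding partner of mature fibrils, was at 6.12 to 7.56 FPKM in Control, 1.75, 9.82 and 4.04 FPKM in IgG, and 8.20 to 9.20 FPKM in anti-A9, and it was not called. Col20a1 was not called either (0.541 to 2.72 FPKM over all mice), and Col19a1 was at or below 0.0137 FPKM.

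Of the 4 transmembrane collagens, Col17a1 rose most. It encodes the hemidesmosome collagen that ties basal epithelial cells to the basement membrane. Its level was 0.331, 0.176 and 0.333 FPKM in Control, 6.47, 1.07 and 3.41 FPKM in IgG, and 0.503, 0.184 and 0.368 FPKM in anti-A9. The IgG mice were all above the others, again in the order mouse 1, mouse 3, mouse 2. The log2 fold change was 3.01 ± 0.59 in IgG against Control (limma, adjusted p = 0.0155) and -2.80 ± 0.59 in anti-A9 against IgG (adjusted p = 0.0175).

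Of 7 markers of stratified squamous epithelium, such as the anal canal has, 5 were tested, and Krt14 and Krt6a were called higher in IgG against Control. These genes and Lor were called lower in anti-A9 against IgG. The basal keratin Krt14 was at 0.797 to 1.68 FPKM in Control, 37.1, 4.63 and 18.6 FPKM in IgG, and 0.819 to 1.95 FPKM in anti-A9, and among the IgG mice it had the order of Col17a1, Col9a2 and Col9a3. Krt6a, which passed the filter only with the IgG mice counted, and Lor were highest in IgG mouse 3. Krt5, the partner of Krt14, was at most 0.468 FPKM, and Krt5 and Krt10 were not called, with changes of 1.11 (limma, adjusted p = 0.162) and -0.12 (adjusted p = 0.859) in IgG against Control. Krt1 and Ivl were at most 0.0864 and 0.177 FPKM in any mouse and were not tested. The 7 markers summed to 2.28 to 4.37 FPKM in Control, 40.3, 8.13 and 24.6 FPKM in IgG, and 2.21 to 3.48 FPKM in anti-A9, and most of the IgG sums was Krt14. The part of these cells in the collagen values was not tested.

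Col25a1, a collagen of neurons, was at 0.0524, 0.227 and 0.0312 FPKM in Control, 0.0156, 0.0294 and 0.0253 FPKM in IgG, and 0.346, 0.178 and 0.251 FPKM in anti-A9. It was called higher in anti-A9 against IgG (1.51 ± 0.38, limma, adjusted p = 0.0277), at levels where the change is understated, and passed the filter only with the anti-A9 mice counted. Col28a1, found around peripheral glia, was at 0.957, 0.998 and 0.692 FPKM in Control, 0.260, 0.587 and 0.871 FPKM in IgG, and 2.03, 1.16 and 1.88 FPKM in anti-A9. It too was called in that comparison (1.49 ± 0.39, adjusted p = 0.0313). The 4 glial markers summed to 3.45 to 6.32 FPKM in Control, 0.936 to 3.07 FPKM in IgG and 4.96 to 7.49 FPKM in anti-A9, and 2 of them were called higher in anti-A9 against IgG. Their part in the levels of Col25a1 and Col28a1 was not tested. Col13a1 and Col23a1, the other transmembrane collagens, were not called in any comparison. Col23a1 was 8.03 FPKM in IgG mouse 1 and 1.58 to 3.63 FPKM in the other 8 mice.

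Col18a1, whose end piece is endostatin and which lies in basement membranes, was raised in every IgG mouse. It was at 9.09, 10.3 and 9.85 FPKM in Control, 43.3, 28.0 and 83.6 FPKM in IgG, and 15.0, 12.5 and 10.8 FPKM in anti-A9. The 3 groups did not overlap. The log2 fold change was 2.25 ± 0.34 in IgG against Control (limma, adjusted p = 0.00560), -1.88 ± 0.34 in anti-A9 against IgG (adjusted p = 0.0115) and 0.37 ± 0.34 in anti-A9 against Control (adjusted p = 0.586). Its relative Col15a1 was at 5.42 to 7.76 FPKM in Control and 5.44, 14.3 and 17.2 FPKM in IgG, and was not called.

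The remaining collagens showed no call. Col7a1, the anchoring fibril, was at 0.361 to 0.713 FPKM in Control, 0.557, 0.520 and 1.72 FPKM in IgG, and 0.178 to 0.548 FPKM in anti-A9. Col8a1, of the network below endothelium, was at 1.11 to 2.88 FPKM in Control, 2.58 to 6.33 FPKM in IgG and 3.57 to 5.54 FPKM in anti-A9, and its change of 1.10 in anti-A9 against Control had an unadjusted p of 0.0263 (limma, adjusted p = 0.301). Col8a2 ranged from 0.142 to 3.39 FPKM within IgG alone. Col10a1 and Col26a1 were not tested, with at most 0.125 and 0.128 FPKM.

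**Figure D3:**
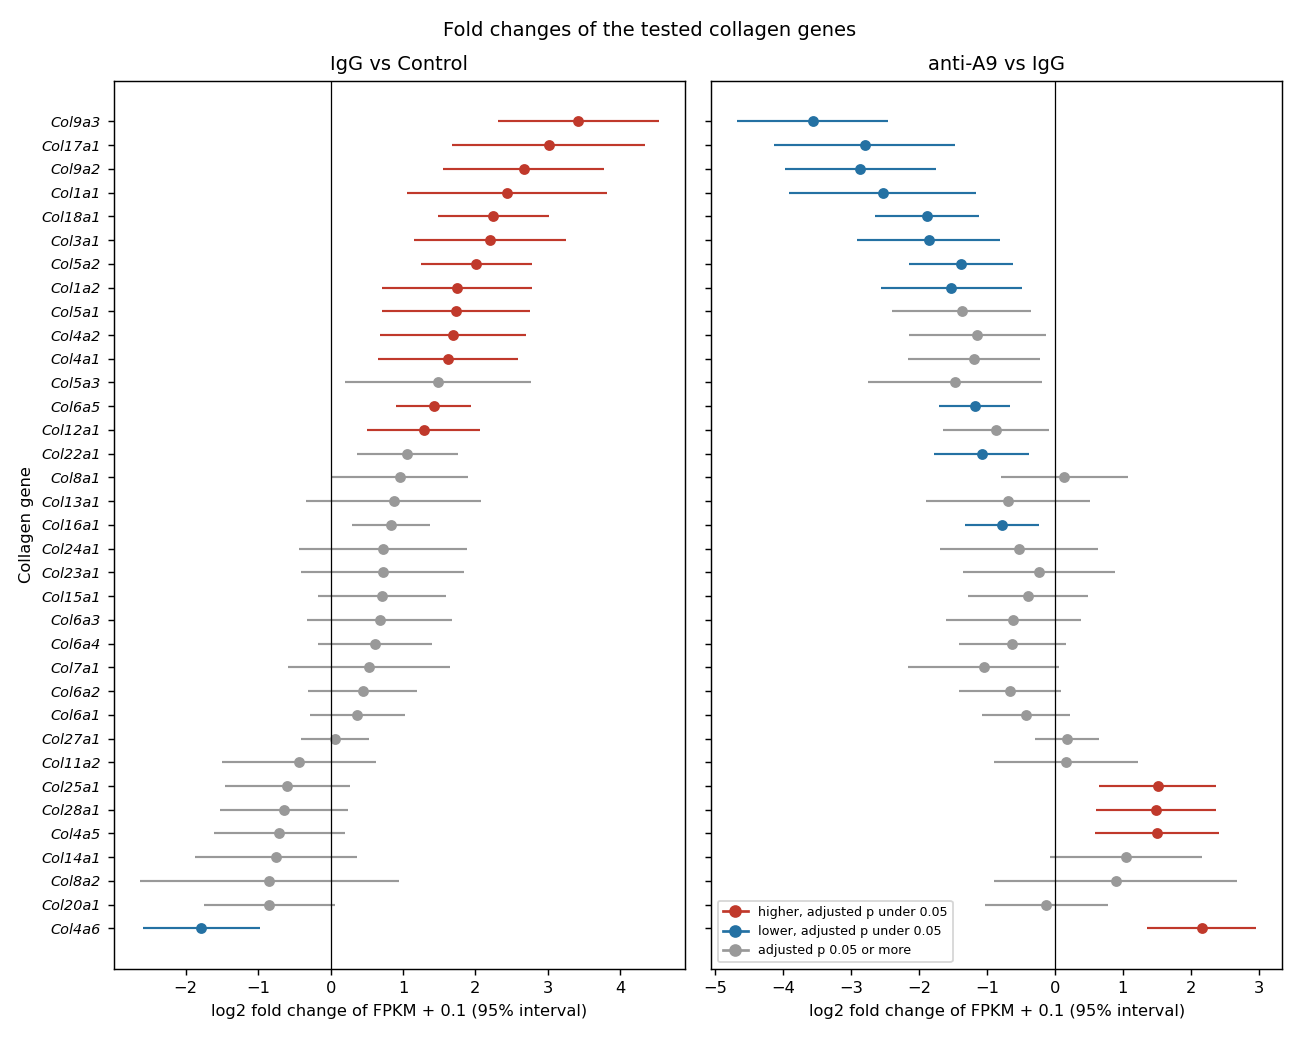
Log2 fold changes of FPKM + 0.1 with 95% intervals for the 35 tested collagen genes, in IgG against Control (left) and anti-A9 against IgG (right), ordered by the change in the left panel and colored by the call. The panels share the IgG mice. The largest rise on the left is that of Col9a3 (3.42) and the largest fall that of Col4a6 (-1.78).

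Across the comparisons, 9 collagen genes were called higher in IgG against Control and lower in anti-A9 against IgG (Col1a1, Col1a2, Col3a1, Col5a2, Col6a5, Col9a2, Col9a3, Col17a1 and Col18a1), and Col4a6 was called in the opposite directions. A further 4 were called higher against Control without a call in anti-A9 against IgG (Col5a1, Col4a1, Col4a2 and Col12a1). Another 5 were called in anti-A9 against IgG without a call against Control (Col16a1 and Col22a1 lower, Col4a5, Col25a1 and Col28a1 higher), and 16 of the 35 had neither call. Among these 5, Col22a1 and Col25a1 passed the filter only through the group where they are high, so their calls follow in part from the filter. Both comparisons use the same IgG mice, and the difference between them was not tested gene by gene. Col1a1, Col1a2, Col3a1, Col5a1, Col5a2, Col6a5, Col9a2, Col9a3, Col17a1, Col18a1 and Col22a1 are among the genes that the study listed in its pathways from these samples, so their direction is not independent evidence.

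No collagen was called in anti-A9 against Control by limma, with the 3 unadjusted p-values under 0.05 those of Col8a1, Col20a1 and Col25a1. The 9 genes called higher in IgG against Control and lower in anti-A9 against IgG had IgG means 2.82 to 16.8 times the Control mean. Their anti-A9 means were 0.87 to 1.56 times the Control mean. These genes were picked by those calls, so these folds follow in part from the selection. The interval of the Col1a1 change in anti-A9 against Control ran from -1.48 to 1.28 on the log2 scale, and that of Col3a1 from -0.70 to 1.39, so that a 2-fold difference in either gene was not excluded.

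The IgG mice differed among themselves in which collagens were raised. Of the 13 raised genes, 3 were highest in IgG mouse 1, 5 in mouse 2 and 5 in mouse 3, and 7 were lowest in mouse 1, 5 in mouse 2 and 1 in mouse 3. Col1a1, Col1a2, Col3a1 and Col5a1 were 1.39 to 2.00 times the Control mean in IgG mouse 1 and 4.01 to 11.6 times in mice 2 and 3. Col5a2 was 2.38, 4.05 and 6.74 times the Control mean in IgG mice 1, 2 and 3, and so was highest in mouse 3. Col9a2, Col9a3 and Col17a1 were 13.3 to 27.1 times the Control mean in mouse 1 and 3.36 to 6.21 times in mouse 2. Col4a1, Col4a2 and Col18a1 were 6.71 to 8.56 times the Control mean in mouse 3, and 1.72 to 4.44 times in mice 1 and 2. With 1 library per mouse, differences between mice and between the pieces of tissue taken cannot be told apart.

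**Figure D4:**
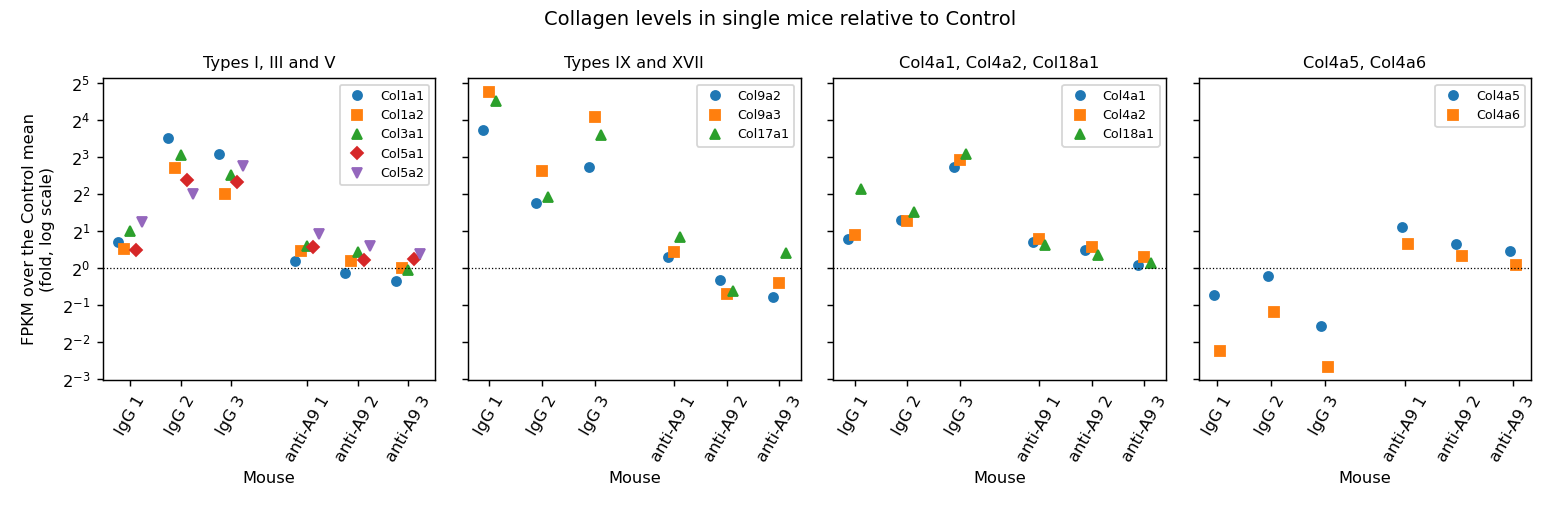
FPKM of named collagen genes in each AOM/DSS mouse divided by the Control mean of that gene (log scale, dotted line at 1), with 1 point per gene and mouse. Types I, III and V are higher in IgG mice 2 and 3 than in mouse 1, where Col5a2 is at 2.38. Types IX and XVII are highest in mice 1 and 3, and Col4a1, Col4a2 and Col18a1 in mouse 3. Col4a5 and Col4a6 are below 1 in all 3 IgG mice.

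Leaving out single mice changed many calls. In IgG against Control, the calls of Col5a2, Col6a5, Col9a2, Col9a3 and Col18a1 held in all 9 fits. Col17a1 lost its call without Control mouse 2 (limma, adjusted p = 0.0639), Col4a6 without Control mouse 1 or 2 (up to 0.0702), Col3a1 without any 1 Control mouse or IgG mouse 3 (up to 0.0652), and Col4a1 and Col4a2 without any 1 Control or anti-A9 mouse (up to 0.112 and 0.109). Col1a1, Col1a2 and Col5a1 kept the call only when IgG mouse 1 was left out, and their adjusted p otherwise reached 0.110, 0.121 and 0.106. Col12a1 kept it only without IgG mouse 2 (otherwise up to 0.109). The count of 14 calls, beside 11.2% of all genes, became 6, 5 and 7 without Control mice 1, 2 and 3, where 4.76%, 3.88% and 11.1% of all genes were called. It was 9 without IgG mouse 3 (7.3% of all genes) and 8 without any 1 of the anti-A9 mice (7.38% to 7.79%). In the fit of the compared groups alone it was 6 (4.06%), with median-of-ratios scaling 8 (9.92%), and with the replicate number as a block 8 (11.1%).

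In anti-A9 against IgG, the calls of Col4a6, Col9a2, Col9a3 and Col18a1 held in all 9 fits. Col6a5 lost its call without anti-A9 mouse 1 or 2 (limma, adjusted p up to 0.0584) and Col17a1 without anti-A9 mouse 2 or 3 (up to 0.0674). Col1a1, Col3a1 and Col5a2 lost it without IgG mouse 3 or any 1 anti-A9 mouse (up to 0.0788, 0.0811 and 0.0826), Col28a1 without IgG mouse 1 or any 1 anti-A9 mouse (up to 0.105), and Col4a5 and Col25a1 also without IgG mouse 3 (up to 0.109 and 0.0981). Col1a2 kept it only without IgG mouse 1 (otherwise up to 0.12). Col16a1 lost it without Control mouse 2, IgG mouse 1 or 3, or any 1 anti-A9 mouse (up to 0.125), and Col22a1 without Control mouse 2 or any 1 anti-A9 mouse (up to 0.135), while without an IgG mouse it did not pass the filter. The count of 15, beside 21.1% of all genes, became 7 without IgG mouse 3 (10% of all genes), and 5, 4 and 5 without anti-A9 mice 1, 2 and 3 (5.2%, 3.39% and 7.33%).

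Genes that make, cut, cross-link or bind collagen were read from 4 lists of 56 genes, of which 54 were tested. In IgG against Control, 13 were higher and 3 lower (7 and 3 with median-of-ratios scaling), and in anti-A9 against IgG 8 were higher and 11 lower. The share of calls among all genes is as given above for each comparison and for median-of-ratios scaling.

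The extracellular enzymes held the largest change. Of 12 tested, 4 rose in IgG against Control. Lox, the lysyl oxidase that cross-links fibrils, was at 0.343, 0.424 and 0.327 FPKM in Control, 2.23, 21.7 and 19.1 FPKM in IgG, and 1.38, 1.10 and 0.752 FPKM in anti-A9. All 3 groups were separate, and IgG mice 2 and 3 stood highest as in types I and III. Its log2 fold change was 4.42 ± 0.74 in IgG against Control (limma, adjusted p = 0.00866) and -3.11 ± 0.74 in anti-A9 against IgG (adjusted p = 0.0237). Loxl2 and Loxl4, of the same family, rose by 2.24 (adjusted p = 0.00976) and 1.56 (adjusted p = 0.0126), and Bmp1, which cuts the ends off procollagen, rose by 1.59 (adjusted p = 0.00332). In anti-A9 against IgG, Bmp1 fell by 1.34 (limma, adjusted p = 0.00820) and Loxl2 by 1.46 (adjusted p = 0.0317), while Loxl4 had a change of -0.48 (adjusted p = 0.245). Pcolce2, which enhances the cutting of procollagen, was the 1 gene of this list called higher in that comparison (1.90, adjusted p = 0.0180).

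Among the 20 genes for collagen processing in the cell, 4 rose in IgG against Control and 0 fell. Fkbp10, a chaperone of procollagen, rose by 1.41 (limma, adjusted p = 0.0393), Colgalt1, which adds galactose to collagen, by 1.02 (adjusted p = 0.0206), P3h1, a prolyl hydroxylase, by 1.01 (adjusted p = 0.0425), and P3h4, of the same protein family, by 0.80 (adjusted p = 0.0241) on the log2 scale. In anti-A9 against IgG, 6 of the 20 fell and 2 rose. The receptors and uptake genes had 2 higher and 1 lower of 10 in IgG against Control. Mrc2, which takes up cleaved collagen, rose by 1.09 (limma, adjusted p = 0.0314), and Ddr1, the discoidin receptor of epithelial cells, by 0.74 (adjusted p = 0.0231). Gp6, the collagen receptor of platelets, fell by 2.52 (adjusted p = 0.00332), from 0.814, 0.626 and 0.390 FPKM in Control to 0.0461 and 0.0184 FPKM in IgG mice 2 and 3, and it was listed at 0 in IgG mouse 1. Of the 10, 3 rose and 1 fell in anti-A9 against IgG. Ddr2, the discoidin receptor of connective tissue cells, rose by 1.85 (limma, adjusted p = 0.00879), Gp6 by 1.57 (adjusted p = 0.0180) and Itga1, an integrin chain that binds collagen, by 1.26 (adjusted p = 0.0213), while Ddr1 fell by 0.89 (adjusted p = 0.0115).

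Fibril partners moved both ways. Of 12 tested, 3 rose in IgG against Control and 2 fell. Sparc, a collagen-binding protein, was at 102, 107 and 113 FPKM in Control, 162, 581 and 580 FPKM in IgG, and 151, 109 and 105 FPKM in anti-A9, and rose by 1.82 (limma, adjusted p = 0.0339). Fn1 (fibronectin) rose by 1.42 (adjusted p = 0.0455). Ogn, a small leucine-rich proteoglycan, and Tnxb, a tenascin that stabilizes fibrils, fell by 1.51 (limma, adjusted p = 0.00723) and 1.35 (adjusted p = 0.0313). Against IgG, the anti-A9 mice were higher in Tnxb by 1.81 (limma, adjusted p = 0.0113), higher in Ogn by 1.56 (adjusted p = 0.00755) and lower in Sparc, which fell by 1.66 (adjusted p = 0.0326), the 3 calls of this list there. Dcn, the proteoglycan that coats type I fibrils, which was singled out after its values were seen, was not called, at 191 to 239 FPKM in Control, 229 to 294 FPKM in IgG and 304 to 373 FPKM in anti-A9. The ratio of Col1a1 to Dcn was 0.162 to 0.234 in Control, 0.299 to 1.78 in IgG and 0.109 to 0.130 in anti-A9, without overlap between the groups.

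The 7 fibroblast markers summed to 334 to 380 FPKM in Control, 310 to 481 FPKM in IgG and 453 to 573 FPKM in anti-A9, with most of each sum from Dcn. In IgG against Control 2 of them, Pdgfra and Pdgfrb, were called higher. The other 5 were not called, with Lum and Dpt changing by -0.26 and -0.57 and the rest rising. In anti-A9 against IgG 0 of the 7 were called by limma (1 had an unadjusted p under 0.05), with changes from -0.71 to 0.77. Of the 7 smooth muscle markers, 0 were called in IgG against Control by limma (1 had an unadjusted p under 0.05), with log2 fold changes from -1.46 to -0.55 and a median of -1.04. In anti-A9 against IgG, 1 of them, Myh11, was called higher and 5 had an unadjusted p under 0.05, with changes from 1.00 to 2.01 and a median of 1.39. Of the 6 epithelial markers, Krt18 was called higher in IgG against Control (1.19, limma, adjusted p = 0.0256) and lower in anti-A9 against IgG (-1.42, adjusted p = 0.0129). Krt20 was not called, with changes of -0.90 (adjusted p = 0.137) and 1.08 (adjusted p = 0.0625). The 4 leukocyte markers summed to 345 to 1252 FPKM in Control, 415 to 811 FPKM in IgG and 757 to 1057 FPKM in anti-A9, and 0 of them were called by limma (0 and 1 had an unadjusted p under 0.05 in IgG against Control and in anti-A9 against IgG). Endothelial markers (19.2 to 49.2 FPKM in IgG, 27.1 to 30.0 FPKM in Control) were not called. Adipocyte markers summed to 38.3 to 170 FPKM in Control, 0.280 to 15.0 FPKM in IgG and 0.246 to 1.72 FPKM in anti-A9, and the 4 tested were called lower in IgG against Control. Of these, Adipoq and Plin1 passed the filter only with the Control mice counted, where they are high. Their calls thus follow in part from the filter. Of the 4 skeletal muscle markers, 2 were tested and 0 called by limma, with 1 unadjusted p under 0.05 in each of IgG against Control and anti-A9 against IgG. The part of these cells in the collagen levels was not tested.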

How the data were processed

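The authors deposited a table of FPKM values for each mouse (21544 rows, gene symbols as names), whose unit was read from the values. The submitters' processing notes name TopHat, Cufflinks, HTSeq, DESeq and the build GRCm38. Versions, read depth and strandedness are not given in the sources used here. From these values, 46 rows with a repeated symbol were summed, none of them a collagen gene, and log2(FPKM + 0.1) was fitted for all 9 mice with limma 3.58.1 in R 4.3.3 (empirical Bayes moderation with an intensity trend, Benjamini-Hochberg adjustment over the 15278 genes that reached 0.1 FPKM in 3 or more mice). DESeq, which needs counts, was not repeated. The fit was tested on simulated data, with 200 genes changed in IgG against Control. At log2 changes of 1, 2 and 3 it recovered 15.5%, 74.5% and 86.5% of them, and called 0, 5 and 4 unchanged genes. A gene without a call may therefore still differ by 2-fold. The simulation changed 200 of 15278 genes, with noise drawn separately for each gene. In the data, 11.2% of genes were called in IgG against Control and 21.1% in anti-A9 against IgG. The adjustment depends on how many genes change, so the recovered shares need not hold for the fits reported. Named genes are the collagens called in IgG against Control or anti-A9 against IgG, the highest of each class, their partner chains, and, from each companion list, the 4 largest changes among genes called in IgG against Control. Pcolce2, Ddr2 and Itga1, called only in anti-A9 against IgG, the marker genes and the fibril partner Dcn fall outside this rule and were named after their values were seen. Members and lists were chosen with earlier results of these data known. Positions are from GENCODE M21, and sequences from RefSeq. Alternatives covered the thresholds, the replicate block, the groups fitted, pseudocounts, filters, scaling, the trend and leaving out each mouse. Figures were drawn with matplotlib 3.10.9.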

Additional observations from a re-analysis of the deposited data

How the results depend on the processing

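Counts of calls are by limma. Leaving out 1 mouse at a time, the collagen count ran from 5 to 15 in IgG against Control (14 with all mice), from 4 to 15 in anti-A9 against IgG (15) and stayed at 0 in anti-A9 against Control, and the companion count ran from 5 to 20 (16) and from 4 to 22 (19). Fewer mice in a fit leave fewer degrees of freedom. The share of all genes called also moved between these fits, as given above for several of them. The ranges alone therefore do not show whether companions moved more than all genes. In IgG against Control the collagen count was 8 with median-of-ratios scaling and 6 with only the compared groups, and the companion count was 10 and 6, where 9.92% and 4.06% of all genes were called (11.2% in the fit as reported). With the thresholds of an unadjusted p under 0.05 and over 2-fold, the companion count in anti-A9 against IgG was 12, and 1 collagen gene was called in anti-A9 against Control. Median-of-ratios scaling and quantile normalization moved the median change of all genes in IgG against Control by -0.10 and -0.12. The collagen median under these scalings was not examined, and the causes of these moves were not tested. None of the 19 called collagens changed direction in IgG against Control or anti-A9 against IgG under any alternative in which it was tested. The direction of the other collagens under the alternatives was not examined. Of their values under the alternatives, 554 stayed on the same side of the threshold, 149 lost a call and 9 gained one. Counting error could not be estimated for low genes such as Col22a1 and Col25a1, as no read counts are given.

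Whether the replicate numbers mark pairs of mice is not stated. Deviations of same-numbered mice correlated by -0.187 to 0.249 over the pairs of groups, not all above 0.1. With so few mice these correlations cannot decide whether same-numbered mice belong together. With the replicate number as a block, the collagen count was 8 in IgG against Control and 13 in anti-A9 against IgG, the companion counts were 15 and 16, and 11.1% and 22% of all genes were called.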
